A study of Mus musculus with 6 samples.

Results

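The genes of glycogen storage described here are 9 mouse genes that encode glycogen enzymes and the subunits that target protein phosphatase 1 to glycogen. They were chosen by gene symbol: each probe set that the array's platform annotation pairs with *Ppp1r3a*, *Ppp1r3b*, *Ppp1r3c*, *Ppp1r3d*, *Gyg*, *Gys1*, *Gbe1*, *Pygm* or *Pygl* was taken. All 9 genes were measured, each by 1 probe set of its own, out of 19938 genes measured in the series by a probe set that names no other gene. The list was drawn up with the difference of *Ppp1r3c* between the genotypes already known, so the levels and differences of the 9 genes are given as a description, with no p-value.

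Glycogen is the branched glucose store of muscle, liver, fat and other cells. Glycogenin primes a chain, glycogen synthase lengthens it, the branching enzyme adds branch points, and glycogen phosphorylase releases glucose-1-phosphate from the chain ends. Protein phosphatase 1 switches the synthase on and the phosphorylase off by removing phosphate, and the Ppp1r3 proteins bring it to the glycogen particle. In liver and muscle, glycogen content and several of these genes are known to follow a daily rhythm of feeding and of the circadian clock.

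RNA of whole dorsal skin was hybridized to Affymetrix mouse gene arrays, with 1 mouse on each array, from 3 *Bmal1*-/- mice and 3 *Bmal1*+/- littermates. The *Bmal1*-/- mice lack both working copies of the clock transcription factor BMAL1 in the whole body, and the *Bmal1*+/- mice carry 1 mutant copy too, so no wild type skin is included. The mice were of C57BL/6J background and labelled as 22 days old, and the hair follicles of all 6 were in telogen, their resting phase. All mice were female except *Bmal1*+/- replicate 1, a male that another label places at day 23.

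The deposited intensities are linear, and their median lay between 219 and 235.5 on the 6 arrays. Differences are *Bmal1*-/- minus *Bmal1*+/- on the scale log2(intensity + 16), with the standard error (SE) from limma fitted over 23410 probe sets. Probe sets differ in how strongly they bind, so the level of one gene is not set against that of another. The targeted gene itself, listed as *Arntl*, had intensities of 569, 609.8 and 664 in *Bmal1*-/- skin, against 325, 365 and 355 in *Bmal1*+/- skin. The sources used here do not place its probes inside or outside the deletion, so these values do not check the genotype labels. *Krt5*, a keratinocyte marker, lay at 10078 to 12399 over the 6 arrays, and the liver marker *Alb* was dim, at 75.4 to 117 in *Bmal1*-/- and 98.0 to 147 in *Bmal1*+/- skin. The 5 measured liver markers ran from 75.4 to 374, the highest being *Apoa1*. Of their log2 differences 4 were above 0, and that of *Alb* was -0.24. For *Ttr* (0.27) and the keratinocyte marker *Lor* (0.17) all *Bmal1*-/- mice lay above all *Bmal1*+/- mice, which held for 6.99% of all probe sets. Of the 6 keratinocyte markers, 2 had log2 differences above 0, *Lor* and *Flg2* (0.16). The other 4 lay below 0, the lowest being *Krt1* at -0.14. None of the 6 keratinocyte, 5 measured liver and 4 measured blood cell markers was called by limma or by the test built after Cyber-T, with 2, 1 and 0 of them at an unadjusted p under 0.05.

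*Ppp1r3c* (probe set 10467206), which encodes the widely expressed targeting subunit PTG, was the member with the largest difference. The 3 *Bmal1*-/- mice had intensities of 2568, 2323 and 3222, against 582, 951 and 717 in the *Bmal1*+/- mice. The groups were well apart, with all *Bmal1*-/- mice above all *Bmal1*+/- mice. The log2 difference was 1.84 (SE 0.17, n = 3 mice in each group), which is 3.59-fold on that scale. By size this was number 2 among the higher probe sets of the whole fit. With each array left out in turn, the difference stayed between 1.68 and 2.03, and 1.68 was the value without the male mouse. Whether the difference changes over the day was not tested.

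The sequence before the *Ppp1r3c* start is shown because BMAL1, with its partner CLOCK, is known to bind the E-box CACGTG and the related E′-box CACGTT. Through such sites the pair activates genes. The bases just upstream of the start, from RefSeq (GRCm38.p6, chr19:36736605-36736854, minus strand), are given 5′ to 3′, with both motifs in capitals.
Ppp1r3c upstream: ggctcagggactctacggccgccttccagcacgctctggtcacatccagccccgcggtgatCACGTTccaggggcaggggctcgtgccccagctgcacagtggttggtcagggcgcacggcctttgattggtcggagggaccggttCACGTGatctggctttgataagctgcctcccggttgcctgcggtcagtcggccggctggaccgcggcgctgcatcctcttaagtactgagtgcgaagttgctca
The E-box begins 104 bases and the E′-box 189 bases upstream of the annotated start. A window of 250 bases before and 50 bases after the start was available for 8 of the 9 members, all but *Ppp1r3b*. Of these, 3 held CACGTG, namely *Ppp1r3c*, *Ppp1r3d* and *Gyg*. The copy of *Ppp1r3d* begins 226 bases before and that of *Gyg* 8 bases after the start. The 3 copies are set side by side, with the bases around them, to compare a gene that differed between the genotypes with those whose groups overlapped.
Ppp1r3c (chr19:36736691-36736720, minus strand): gagggaccggttCACGTGatctggctttga
Ppp1r3d (chr2:178414672-178414701, minus strand): gcagcctgaacaCACGTGacgaggttcccg
Gyg (chr3:20155091-20155120, minus strand): agcctgcgcggcCACGTGacggccgctata
CACGTG was present on either strand in 7.15% of 32851 such windows of the genome, and CACGTT in 4.68%. These motifs differ in 1 end letter, so no place matched both. The binding core of the REV-ERB and ROR receptors, searched as TAGGTCA (2.61% of windows), and the D-box, searched as TTANNTAA (1972 of the windows), were found in none of the 8 member windows. *Ppp1r3a*, *Gys1*, *Gbe1*, *Pygm* and *Pygl* held none of the 4 motifs. A match is a description of the sequence and not a measured binding site. *Ppp1r3c* was higher, not lower, in the skin that lacks BMAL1, and whether these motifs have a part in its level was not tested.

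The other 3 targeting subunits overlapped between the genotypes. *Ppp1r3a* (probe set 10543233), which encodes the subunit of striated muscle, had intensities of 1329, 1244 and 1824 in *Bmal1*-/- skin, against 1081, 1886 and 1602 in *Bmal1*+/- skin, a log2 difference of -0.04 (SE 0.19). The highest and the lowest mouse were both *Bmal1*+/-. *Ppp1r3b* (probe set 10571321), which encodes the subunit best known from liver, had 452, 334 and 216 in *Bmal1*-/- skin, against 194, 353 and 178 in *Bmal1*+/- skin. The mean was higher in *Bmal1*-/- skin, at 334 ± 118 against 242 ± 96.8 (SD, n = 3 each), but the log2 difference of 0.45 had an SE of 0.28, and it was 0.21 without *Bmal1*-/- replicate 1 and 0.74 without *Bmal1*+/- replicate 2. *Ppp1r3d* (probe set 10490350), a further targeting subunit, was dim and nearly level, with 168, 177 and 182 in *Bmal1*-/- skin, against 172, 154 and 194 in *Bmal1*+/- skin, a log2 difference of 0.02 (SE 0.10).

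The 3 members that build glycogen had higher means in *Bmal1*-/- skin, each within the spread of the mice. *Gyg* (probe set 10497441), which encodes glycogenin, had 1291, 1085 and 1592 in *Bmal1*-/- skin, against 974, 1264 and 1071 in *Bmal1*+/- skin, a log2 difference of 0.25 (SE 0.13). *Gys1* (probe set 10552945), the glycogen synthase of muscle and most tissues other than liver, had 1492, 1245 and 1612 in *Bmal1*-/- skin, against 1110.1, 1529 and 1135 in *Bmal1*+/- skin, a log2 difference of 0.21 (SE 0.13). For both genes *Bmal1*+/- replicate 2 reached the range of the *Bmal1*-/- mice, and the other 2 *Bmal1*+/- mice lay below all *Bmal1*-/- mice. Without *Bmal1*+/- replicate 2 the differences were 0.35 for *Gyg* and 0.36 for *Gys1*, and without *Bmal1*-/- replicate 3 they were 0.11 and 0.13. *Gbe1* (probe set 10436500), the branching enzyme, had 1623, 949 and 934 in *Bmal1*-/- skin, against 932, 1284 and 786 in *Bmal1*+/- skin, a log2 difference of 0.20 (SE 0.22). Its higher mean came from *Bmal1*-/- replicate 1, without which the difference was -0.06.

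Neither phosphorylase among the members differed beyond the spread of the mice. *Pygm* (probe set 10460947), the muscle form whose loss causes McArdle disease in people, had 7400.1, 6447 and 8184 in *Bmal1*-/- skin, against 6762, 8987 and 6855 in *Bmal1*+/- skin. The *Bmal1*-/- mean was 7344 ± 869.9 and the *Bmal1*+/- mean 7535 ± 1258 (SD, n = 3 each), a log2 difference of -0.03 (SE 0.12). *Pygl* (probe set 10400844), the form named for liver, had 1747, 928 and 869 in *Bmal1*-/- skin, against 869, 1203 and 703 in *Bmal1*+/- skin, a log2 difference of 0.31 (SE 0.26). As for *Gbe1*, *Bmal1*-/- replicate 1 stood far above the other mice, and without it the difference was -0.01.

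**Figure D1:**
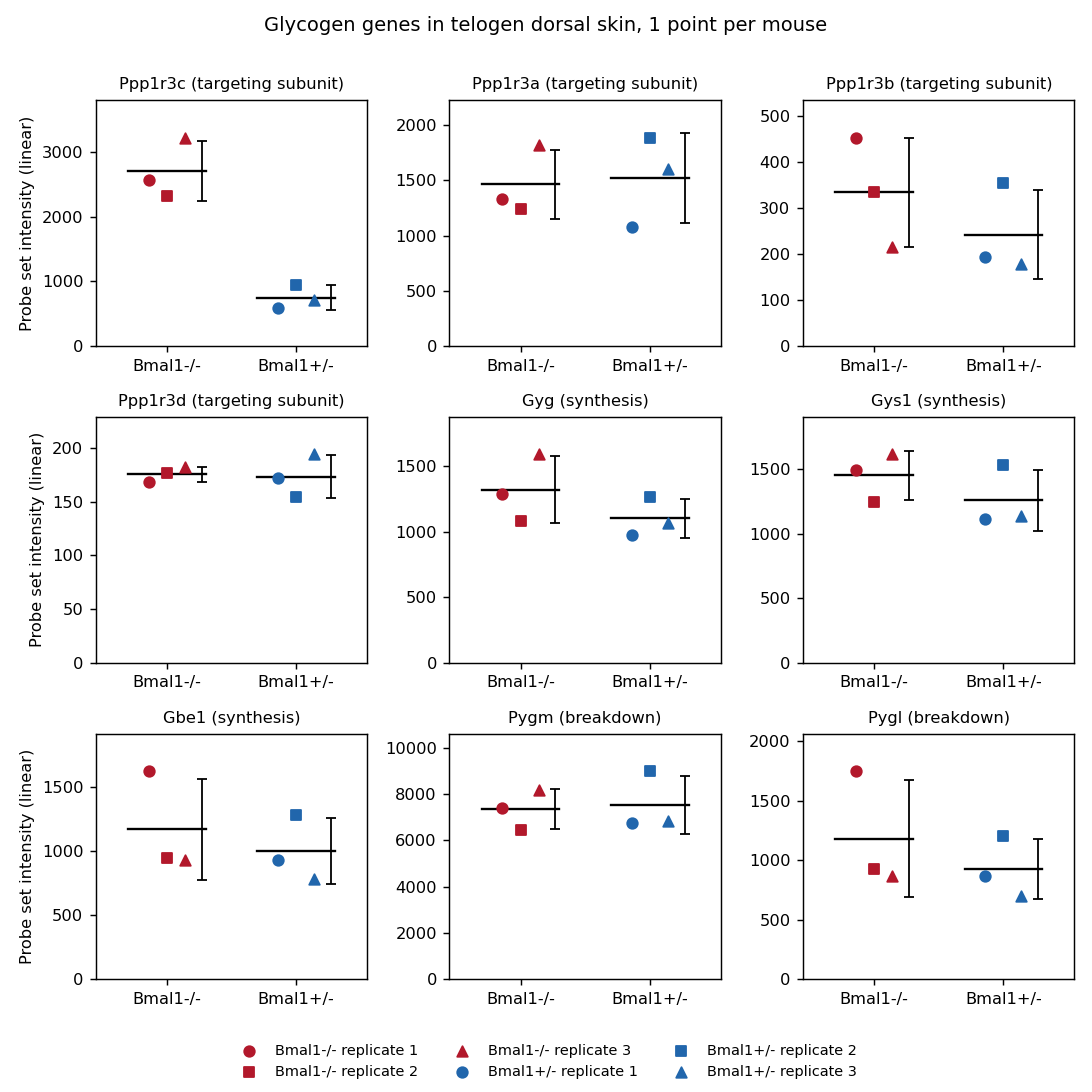
Probe set intensity (vertical axis, linear and starting at 0) of each of the 9 glycogen genes in each mouse (1 point per mouse, marker shape by replicate), with horizontal lines at the genotype means and vertical lines for the SD (n = 3). *Ppp1r3c* is the panel in which the genotypes do not overlap, with *Bmal1*-/- mice at 2323 or more and *Bmal1*+/- mice at 951 or less.

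Over the 9 genes, 7 log2 differences were above 0 and 2 below, with a median of 0.21, against a median of 0.01 over all probe sets tested. In the fit over the whole table, 1 of the 9 members (*Ppp1r3c*) was called at an adjusted p under 0.05, against 0.231% of all probe sets. The groups did not overlap in 1 of the 9, with *Bmal1*-/- above, against 6.99% of all probe sets that way and 14.7% in either direction. Since *Ppp1r3c* prompted the list, nothing is read from these shares.

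Within a genotype the members fell into groups that were high in the same mouse. *Ppp1r3b*, *Gbe1* and *Pygl* were highest among the *Bmal1*-/- mice in replicate 1, with a ratio of the highest to the lowest *Bmal1*-/- mouse of 2.09 for *Ppp1r3b*, 1.74 for *Gbe1* and 2.01 for *Pygl*. The other 6 members were highest in replicate 3, with ratios of 1.08 for *Ppp1r3d* to 1.47 for *Ppp1r3a* and *Gyg*. Of all probe sets, 29.1% were highest in *Bmal1*-/- replicate 1 and 38.4% in replicate 3. Among the *Bmal1*+/- mice, 8 of the 9 members were highest in replicate 2, the exception being *Ppp1r3d*, while 25.6% of all probe sets were highest in that mouse. The lowest *Bmal1*+/- mouse was replicate 3 for *Ppp1r3b*, *Gbe1* and *Pygl*, and replicate 1 for *Ppp1r3a*, *Ppp1r3c*, *Gyg*, *Gys1* and *Pygm*. The order of all 3 mice was thus the same for *Ppp1r3b*, *Gbe1* and *Pygl* in each genotype. All 6 values of a gene come from the same 6 arrays, so these orders are shared by mouse and are not separate observations.

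**Figure D2:**
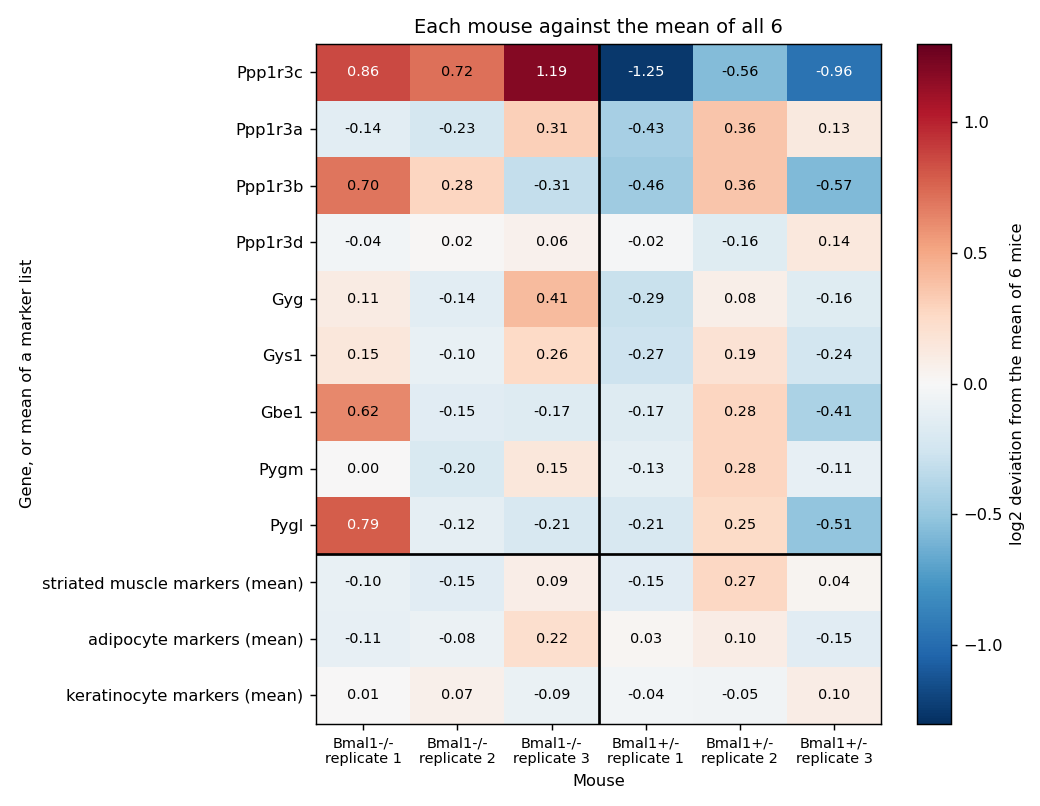
Deviation of each mouse (columns) from the mean of all 6 mice on the scale log2(intensity + 16), for the 9 glycogen genes and for the mean of 3 marker lists (rows), in colour and in figures. *Ppp1r3c* differs by genotype, while *Ppp1r3b*, *Gbe1* and *Pygl* are highest in *Bmal1*-/- replicate 1, at 0.70, 0.62 and 0.79, and muscle markers are highest in *Bmal1*+/- replicate 2, at 0.27.

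Whole skin includes the thin striated muscle under the dermis and the fat layer, and both store glycogen, so markers of these tissues were read beside the members. The summed intensity of 11 striated muscle markers was 78362, 73102 and 84445 in the *Bmal1*-/- mice, against 72029, 94879 and 80808 in the *Bmal1*+/- mice. The highest mouse of each genotype was thus the one in which *Pygm*, *Ppp1r3a*, *Gys1*, *Gyg* and *Ppp1r3c* were highest too. The sums overlapped between the genotypes. None of the 11 markers was called by limma at an adjusted p under 0.05, with 1 at an unadjusted p under 0.05 and 1 called by the test built after Cyber-T (*Myh2* in both cases). *Myh2* had 1979, 2093 and 1880.0 in *Bmal1*-/- skin, against 2217, 3019 and 3250.2 in *Bmal1*+/- skin, a log2 difference of -0.49 (SE 0.12). All its *Bmal1*-/- values lay below all *Bmal1*+/- values, which held for 7.68% of all probe sets. The median log2 difference of the 11 markers was -0.05. Relative to the mean of these markers on the same array, a setting chosen after the data were seen, the difference of *Ppp1r3c* was 1.95. That of *Pygm* was 0.07 and that of *Ppp1r3a* 0.07, and those of the other members ran from 0.13 for *Ppp1r3d* to 0.55 for *Ppp1r3b*. The part of muscle content in the order of the mice was not tested. In RNA of whole tissue, more cells of a type and more RNA per cell cannot be told apart.

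The 7 measured adipocyte markers summed to 17305, 14039 and 17811 in the *Bmal1*-/- mice, against 14704, 15872 and 14032 in the *Bmal1*+/- mice. None was called by limma, none was at an unadjusted p under 0.05, and the test built after Cyber-T called none. Within this list *Bmal1*-/- replicate 1 stood apart on single genes. The hormone gene *Lep* was at 86.3 in that mouse, against 467 and 689 in the other *Bmal1*-/- mice and 493 to 675 in the *Bmal1*+/- mice. *Retn*, which encodes resistin, was at 3589 in that mouse, against 1984 and 1833 in the other *Bmal1*-/- mice and 1248 to 2295 in the *Bmal1*+/- mice. It was thus highest in the mouse in which *Pygl*, *Gbe1* and *Ppp1r3b* were highest. Among the *Bmal1*-/- mice, *Plin1* and *Lipe* were highest in replicate 1 too, while *Adipoq*, *Fabp4*, *Cidec* and *Lep* were highest in replicate 3. The mean of the list deviated from that of all mice by -0.11 in *Bmal1*-/- replicate 1 and by 0.22 in replicate 3. The part of the fat layer in the values of *Pygl*, *Gbe1* and *Ppp1r3b* was not tested.

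**Figure D3:**
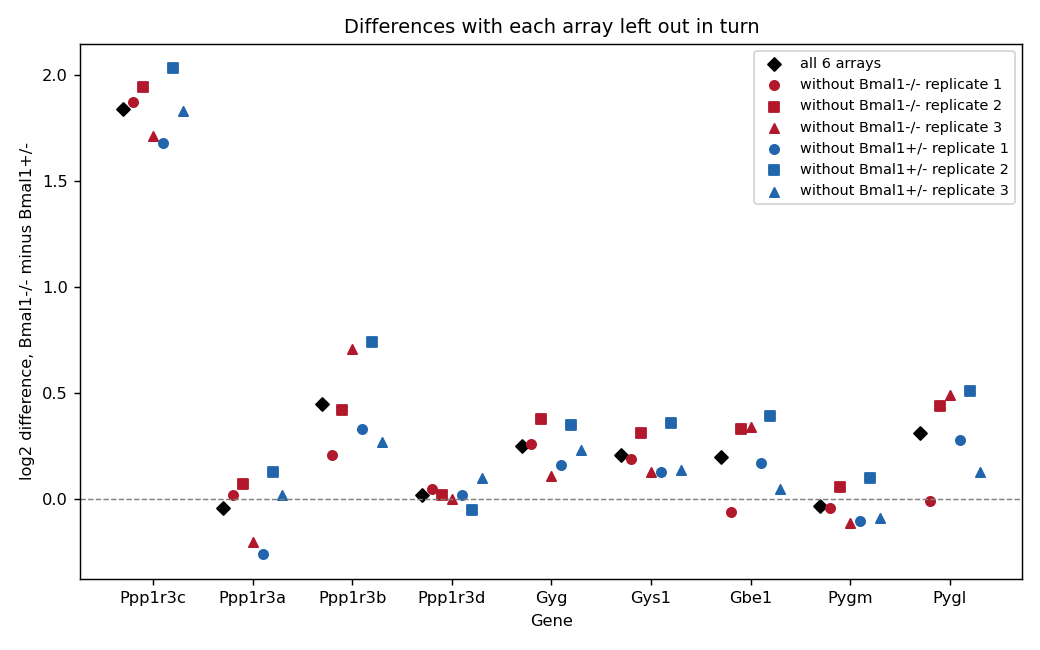
Log2 difference, *Bmal1*-/- minus *Bmal1*+/- (vertical axis), of each of the 9 glycogen genes with all 6 arrays (black) and with each array left out in turn (coloured by the genotype and shaped by the replicate left out). *Ppp1r3c* lies between 1.68 and 2.03 throughout, and *Gbe1* and *Pygl* are just below 0 without *Bmal1*-/- replicate 1.

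The other genes of glycogen handling, a list of 23 chosen by role, were tested in the same fit to ask whether the machinery around the members differed between the genotypes. Of the 22 measured genes, none was called at an adjusted p under 0.05 by limma, 1 (*Stbd1*) was at an unadjusted p under 0.05, and the test built after Cyber-T called none. Their median log2 difference was 0.00, with 11 above and 11 below 0, against a median of 0.01 over all probe sets. The further targeting subunits were level, with log2 differences of 0.03 for *Ppp1r3e*, 0.02 for *Ppp1r3f* and 0.00 for *Ppp1r3g* (SE 0.12, 0.12 and 0.10). So were the catalytic subunits of protein phosphatase 1 that such subunits bind, with 0.06 for *Ppp1ca*, 0.02 for *Ppp1cb* and 0.00 for *Ppp1cc* (SE 0.08, 0.06 and 0.06). The subunits of phosphorylase kinase, which switches the phosphorylase on, ranged from -0.11 for *Phkb* to 0.09 for *Phkg1*.

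*Stbd1*, which encodes a glycogen-binding protein linked to lysosomal breakdown, had intensities of 119.6, 81.4 and 67.3 in *Bmal1*-/- skin, against 108, 164 and 114 in *Bmal1*+/- skin, a log2 difference of -0.46 (SE 0.19, adjusted p = 0.54 from limma). *Bmal1*-/- replicate 1 lay within the *Bmal1*+/- range. *Gys2*, the liver form of glycogen synthase, was dim in 5 mice and bright in 1, with 303, 67.4 and 59.4 in *Bmal1*-/- skin, against 64.1, 109 and 79.0 in *Bmal1*+/- skin. Its log2 difference was 0.36 (SE 0.46, adjusted p = 0.86 from limma) and turned to -0.31 without *Bmal1*-/- replicate 1, the mouse in which *Pygl* and *Gbe1* were highest. *Pgm1*, which interconverts glucose-1-phosphate and glucose-6-phosphate, had 2419.9, 2054 and 2619 in *Bmal1*-/- skin, against 2488, 3432 and 2489 in *Bmal1*+/- skin, a log2 difference of -0.23 (SE 0.13, adjusted p = 0.65 from limma). The genotypes did not overlap in 1 of the 22 genes, with *Bmal1*-/- below, against 7.68% of all probe sets that way and 14.7% in either direction. This gene was *Pgm2*, named after its values were seen, at 506 to 525 in *Bmal1*-/- and 528 to 581 in *Bmal1*+/- skin, a log2 difference of -0.09 (SE 0.07, adjusted p = 0.73 from limma).

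Genes that bring glucose into the cell, which feeds glycogen synthesis, and genes that use glucose-6-phosphate were tested likewise. *Slc37a4* is of the second kind. Of 12 listed genes 9 were measured, and none was called at an adjusted p under 0.05 by limma, 1 (*Slc37a4*) was at an unadjusted p under 0.05, and the test built after Cyber-T called that 1. *Slc37a4*, which carries glucose-6-phosphate into the endoplasmic reticulum, had intensities of 453, 371 and 416 in *Bmal1*-/- skin, against 616, 866 and 475 in *Bmal1*+/- skin. All *Bmal1*-/- mice lay below all *Bmal1*+/- mice, which held for 7.68% of all probe sets. The log2 difference of -0.60 (SE 0.18) did not pass in limma (adjusted p = 0.35, and 0.029 to 0.62 over the alternatives). The glucose transporter genes *Slc2a1* and *Slc2a4* had log2 differences of 0.22 (SE 0.10) and 0.17 (SE 0.19), with an adjusted p of 0.60 and 0.84 from limma. *Slc2a4*, the insulin-responsive transporter of muscle and fat, was highest in the same mice as *Pygl*, at 1189 in *Bmal1*-/- replicate 1 and 1148 in *Bmal1*+/- replicate 2, and lay between 681 and 948 in the other 4.

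**Figure D4:**
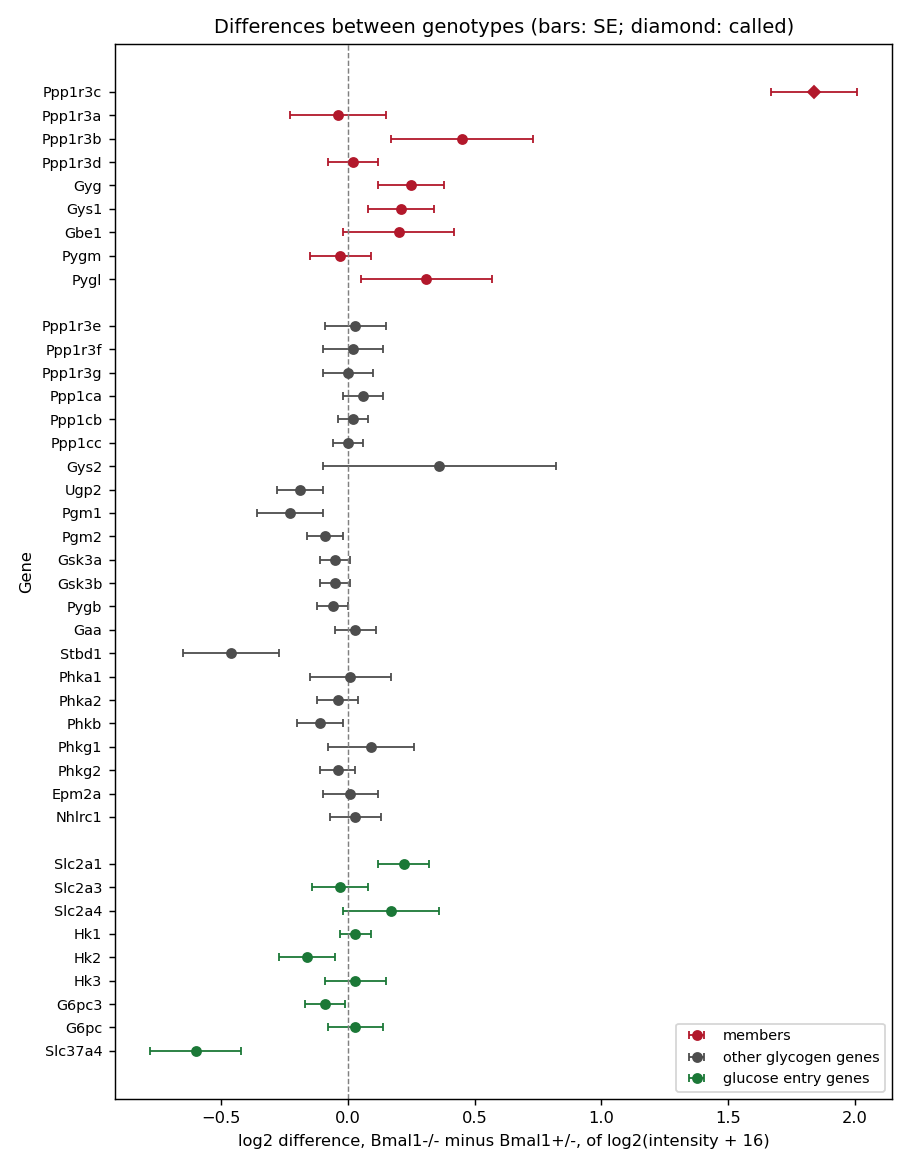
Log2 difference, *Bmal1*-/- minus *Bmal1*+/-, on the scale log2(intensity + 16) (horizontal axis, points with the SE), for the 9 members, the 22 measured other glycogen genes and the 9 measured genes of glucose entry (rows). The diamond marks *Ppp1r3c*, at 1.84, while *Slc37a4* at -0.60 and *Stbd1* at -0.46 lie farthest below 0 and did not pass.

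The genes whose pattern over the 6 arrays was most like that of *Ppp1r3c* were found by Pearson's r among 19085 probe sets of 1 gene with a mean intensity of 64 or more. The 5 highest were *Tas2r135* (r = 0.995), *Rnft1* (0.992), *Flvcr2* (0.990), *Arntl* (0.987) and *Hs6st2* (0.987), and the 5 most negative were *Gm10589* (-0.995), *Ift57* (-0.994), *Enoph1* (-0.993), *Gtf3c3* (-0.992) and *Bcl7c* (-0.992). Each of the first 5 was higher in *Bmal1*-/- skin by a smaller log2 difference than *Ppp1r3c*, from 0.27 for *Flvcr2* to 0.79 for *Arntl*. The 6 points fall into the same 2 genotype groups for every gene, and 78 probe sets had an r above 0.95, so r here mainly reads the difference between the genotypes and is given as a description.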

How the data were processed

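The authors deposited 1 table of linear intensity values per probe set. The submitters' processing notes name PLIER 2.0 and Affymetrix Expression Console 1.1. The sources used here do not give the background correction, scaling between arrays, filters or genome build. An afternoon collection window is stated for the mice of the study's hair cycle time course and is not repeated for the mice used here. No further normalization was applied before taking log2(intensity + 16), which understates the differences of dim genes. Of 35557 probe sets, the 23410 with a gene symbol in the platform annotation (21789 with 1 gene) were fitted in R 4.3.3 by lmFit of limma 3.58.1, with a variance trend in eBayes, two-sided, with Benjamini-Hochberg adjustment, and called at an adjusted p under 0.05. No filter on low values was applied. A gene with several probe sets was represented by the brightest, and each of the 9 members had 1. Labels give each mouse as a biological replicate, and 6 arrays limit the precision.

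The members and gene lists were chosen with earlier results of these data known. Named genes are the members, *Arntl*, called genes and the 3 largest differences of the glycogen and glucose lists, markers, and the genes most like *Ppp1r3c*. The further targeting subunits, the phosphatase and kinase subunits and *Pgm2* fall outside that rule and were named by role or after their values were seen. A few listed genes were not analysed here. The 17 alternative fits changed the offset (1 or 64), the normalization, the rows (all, or a mean intensity of 64 or more), the variance model, the test, the replicate block or the sex term, or left out 1 array, and 2 further thresholds were tried. The regularised test built after Cyber-T, which the study used, took the prior variance from 101 neighbouring probe sets at weight 10, chosen here. The procedure was tested on simulated arrays, where 17.2% of the calls of the test built after Cyber-T were false, against 3.8% for limma. The larger share bears on the calls made by that test alone. Of the simulated log2 differences of 0.5, limma called 65.7%, so a gene that was not called can still differ by that size or less. The simulated noise had the same spread in both genotypes, shrunk by limma's own method, so the shares may differ on the real arrays. Promoter sequences came from RefSeq (GRCm38.p6). Figures were made with matplotlib 3.10.9 in Python 3.11.15.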

Additional observations from a re-analysis of the deposited data

How the results depend on the processing

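The log2 difference of *Ppp1r3c*, a description like those of the other members, lay between 1.68 and 2.03 over the 17 alternative fits. Among the members, *Ppp1r3a*, *Ppp1r3d*, *Gbe1*, *Pygm* and *Pygl* changed sign in at least 1 fit with an array left out, while *Ppp1r3b*, *Gyg* and *Gys1* did not. The difference of *Gys2* reversed to -0.31 without *Bmal1*-/- replicate 1, the mouse with its 1 bright value, and reached 0.73 without *Bmal1*-/- replicate 3. The count of probe sets called over the whole table, 54 in the fit described, was 34 with all probe sets of the table tested, 27 without the variance trend, 273 with the test built after Cyber-T, 90 at an adjusted p under 0.1 and 152 at an unadjusted p under 0.001, and 38 to 57 with 1 array left out. In the glucose list the test built after Cyber-T called 1 gene, *Slc37a4* (adjusted p = 0.029), and no other setting called any. No setting called a gene of the other glycogen list. With the replicate block 54 probe sets were called, 41 of them shared with the fit without it, and the difference of *Ppp1r3c* was 1.84. For same-numbered mice the correlations of their deviations from the genotype means were 0.0907, -0.403 and 0.0625. For mice of unlike number they lay between -0.297 and 0.299. With means of only 3 mice in each genotype, these values cannot decide whether the littermates pair. As only 1 mouse was male, a term for sex amounts to leaving that mouse out. The cause of these changes was not tested beyond what each setting leaves out.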
